A study of Rattus norvegicus with 18 samples.

Results

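Low-oxygen tissue of the rat 9L tumour was compared with low-oxygen cultures of the same cell line, using the 3 hypoxic tumour regions and the 6 hypoxic cultures among the 18 samples of the series. The samples were chosen by their labels alone. 9L is a rat gliosarcoma line that serves as a glioma model, and EF5 is a nitroimidazole that is bound inside cells where oxygen is low. The tumour samples were EF5-positive areas of tumours 1, 2 and 3, lifted out of sections by laser capture. The tumours grew in male Fischer 344 rats, the host strain of the line, inoculated at 6 weeks of age. They were started from pieces of the fifth or the sixth tumour passage that were tied to the epigastric vessels. The culture samples were 9L cells held at 0.2% oxygen, for 6 h in cultures 6, 13 and 26 and for 16 h in cultures 22, 28 and 29. Their medium was MEM with 12% newborn calf serum, and the cells were detached with trypsin before lysis. From every sample, 2 ng of total RNA was amplified and read on an Affymetrix Rat Gene ST array. The 9 normoxic samples are used only for the closing comparison: EF5-negative areas of the same tumours, and cultures at about 20% oxygen for the same times.

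A captured area holds the cells of the host (macrophages, lymphocytes, vessels, fibroblasts) beside the 9L cells, while the cultures hold 9L cells alone. Nothing in the labels says that each tumour came from another rat, or that same-group cultures were grown as independent experiments. The p-values therefore measure only how far these arrays spread, part of which may be technical. In bulk RNA, fewer cells of a type and less RNA per cell cannot be told apart.

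Cells meet a lack of oxygen first through the prolyl hydroxylases, which stop marking HIF proteins for destruction when oxygen falls. HIF then raises genes of glucose uptake, glycolysis, vessel growth and acid export. Longer or deeper hypoxia also engages stress pathways that slow translation and the cell cycle, and in tumours it lies far from vessels, where nutrients are scarce and macrophages gather.

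The arrays of both groups had unlike distributions, which bears on every value below. The array median was 6.41 to 6.50 log2 units in the hypoxic tumour regions and 6.02 to 6.16 in the hypoxic cultures, and the SD over probe sets was 1.76 to 1.78 against 2.06 to 2.17. Tumour arrays correlated with each other at 0.937 to 0.956 across probe sets, cultures of one time at 0.988 to 0.994, and tumour with culture arrays at 0.852 to 0.895. The median SD of a probe set was 0.228 among the tumours and 0.156 among the cultures. With limma on the deposited values, 20244 of 27363 probe sets (74%) had an adjusted p below 0.05, of which 14236 (52% of all) were higher in the tumour and 6008 (22%) lower. After quantile normalization of the 18 arrays 12545 passed (45.8%), with 27.7% of all probe sets higher and 18.2% lower. The share of calls that were higher in the tumour was 70.3% as deposited, 60.4% after quantile normalization, 47.1% after cyclic loess, 44.7% after median centring and 39.0% after centring and scaling to one SD. The median difference moved from 0.37 to 0.11, 0.01, 0.01 and -0.11 in the same order. With probe sets split into 4 equal bins from the dimmest to the brightest, the median difference was 0.41, 0.64, 0.37 and -0.77 as deposited and 0.05, 0.22, 0.34 and -0.24 after quantile normalization, so bright probe sets read lower in the tumour under both.

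A gene was therefore called different only where it was at least 2-fold apart with a limma adjusted p below 0.05 both in the deposited and in the quantile normalized values, a rule set after the distributions were seen. By this rule 419 of 14324 genes (2.93%) were higher in hypoxic tissue and 1843 (12.9%) were lower. Of these 2262 genes, 2262 kept their direction under cyclic loess, centring and SD scaling, and 2241, 2259 and 2258 stayed past the adjusted p threshold in that order. The difference was still at least 2-fold there for 1847, 1997 and 2103. Kept direction was no test under centring, which shifts all differences by the same amount, too small to turn a 2-fold difference. The genes were also selected on these same data. With cyclic loess in place of quantile normalization in the rule, 226 genes were higher and 1638 lower. The 3 tumour arrays lay wholly above the 6 culture arrays in both scalings for 3004 genes (21%) and wholly below for 2308 (16.1%), which include 410 of the 419 and 1696 of the 1843. Against the cultures of one time alone, 438 genes (3.06%) were higher and 1857 (13%) lower than at 6 h, and 441 (3.08%) were higher and 1702 (11.9%) lower than at 16 h. Both times shared 317 of the 419 higher genes and 1576 of the 1843 lower genes. Unless said otherwise, differences below are hypoxic tumour minus hypoxic culture in deposited log2 units, with ± for the standard error of the fit, and the value after quantile normalization is named as such. Over all genes the median difference was 0.32 as deposited and 0.10 after quantile normalization.

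**Figure D1:**
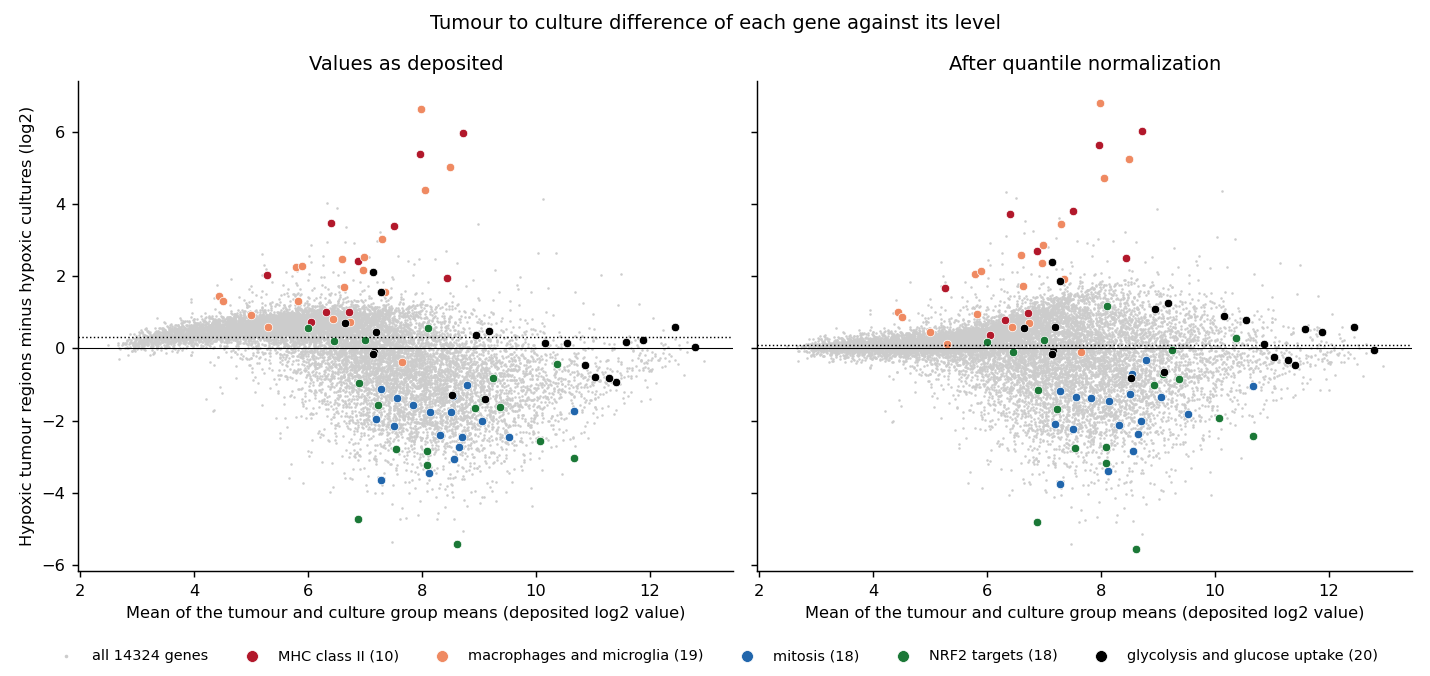
Each dot is 1 of 14324 genes, with the mean of both group means in deposited log2 units on the horizontal axis and the difference between hypoxic tumour regions and hypoxic cultures (log2) on the vertical axis, as deposited on the left and after quantile normalization on the right. The dotted line marks the median of all genes (0.32 and 0.10). Genes of MHC class II and of macrophages stand at the top of both panels and those of mitosis and NRF2 mostly at the bottom.

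The highest differences belonged to genes of antigen presentation and macrophages. The 12 largest increases among genes whose tumour and culture arrays did not overlap were Lyz2, Cd74, RT1-Da, C1qc, Tyrobp, Crabp1, Cxcl13, Cxcl9, RT1-Ba, Apoe, RT1-Bb and Dpt, from 6.62 down to 3.37 log2 units. Of the 10 measured genes of MHC class II, 7 were called higher and 0 lower, and their median difference was 2.22 as deposited and 2.60 after quantile normalization. Of 19 markers of macrophages and microglia, 12 were called higher and 0 lower, with medians of 1.69 and 1.92. The shares over all genes were 2.93% higher and 12.9% lower. Averaged over the 19 markers, the level was 7.36 to 7.77 in the tumour arrays and 5.37 to 5.50 in the cultures. The part of these cells in the other immune results below was not tested.

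Cd74, the invariant chain that guides MHC class II molecules to the compartment where they take up peptide, read 11.92, 12.01 and 11.19 in tumours 1, 2 and 3, and 5.47 to 5.96 in the 6 cultures with a median of 5.82. The groups lie far apart, and no culture comes near a tumour. The difference was 5.96 ± 0.18 (62.4-fold, limma adjusted p = 1.7e-07). RT1-Da, the alpha chain of a rat class II molecule, read 10.88, 11.78 and 9.29 against 5.08 to 5.47 with a median of 5.27. Tumour 3 was the lowest of the tumours and still well above the cultures. RT1-Ba and RT1-Bb, the chains of the other class II molecule, differed by 3.46 ± 0.23 and 3.38 ± 0.22, RT1-Db1 by 2.02 ± 0.22, and the peptide loading chains RT1-DMa and RT1-DMb by 1.94 ± 0.38 and 2.41 ± 0.15. The transactivator of these genes, Ciita, read 6.31, 6.76 and 6.21 against 5.59 to 5.76. Its difference of 0.73 (0.36 after quantile normalization) stayed under 2-fold. RT1-DOa and RT1-DOb, whose products hold back peptide loading, differed by 1.02 and 1.01 as deposited and by 0.98 and 0.78 after quantile normalization, and were not called. RT1 genes form families of near-identical copies, so the split of signal among them is uncertain.

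Since the class II chains were higher together, their promoters were searched for the Y box, the element of class II promoters bound by NF-Y, with the letters CTGATTGG on either strand. It was found within 250 bases before to 50 after the start in 5 of the 8 measured class II genes that have a promoter in the RefSeq table (GRCr8), and in 3.5% of all 33469 promoters. A match describes the letters and does not show binding. Shown are the 110 bases before the start of the 4 called chain genes with a match, with the Y box in capitals, at chr20:4576947-4577056 (plus strand) for RT1-Ba, chr20:4604119-4604228 (minus) for RT1-Bb, chr20:4515305-4515414 (plus) for RT1-Da and chr20:4560163-4560272 (minus) for RT1-Db1. The box begins 46, 64, 52 and 83 bases before the start in that order.
RT1-Ba: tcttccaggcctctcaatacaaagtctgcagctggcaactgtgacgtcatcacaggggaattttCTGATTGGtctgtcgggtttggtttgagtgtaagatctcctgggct
RT1-Bb: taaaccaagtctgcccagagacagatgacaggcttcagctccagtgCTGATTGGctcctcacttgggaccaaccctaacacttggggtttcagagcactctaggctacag
RT1-Da: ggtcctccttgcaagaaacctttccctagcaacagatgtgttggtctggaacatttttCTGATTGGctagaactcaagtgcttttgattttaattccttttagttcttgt
RT1-Db1: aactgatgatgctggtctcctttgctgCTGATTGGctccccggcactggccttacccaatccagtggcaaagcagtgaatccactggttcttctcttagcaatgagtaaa

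Lyz2, the lysozyme of macrophages, was the most different gene of all. It read 11.37, 11.77 and 10.74 in the tumours and 4.52 to 5.06 in the cultures with a median of 4.59, a difference of 6.62 ± 0.21 (98.6-fold, limma adjusted p = 1.89e-07). Every tumour was above every culture by a wide margin. Lysozyme genes have near-identical copies in rodents, so the signal may be shared with another copy. C1qc, a chain of the complement recognition protein made mostly by macrophages, read 10.65, 10.87 and 11.51 against 5.78 to 6.37 (5.03 ± 0.19 log2 units). Tyrobp, a signalling adaptor of myeloid receptors, differed by 4.38 ± 0.34. Other called markers were the Fc receptor chain Fcer1g (3.04), the lysosomal protein Cd68 (2.52), the lysosomal protease Ctss (2.48), Laptm5 (2.28) and Aif1 (2.25). The receptor for macrophage growth factor, Csf1r, differed by 0.74 and the scavenger receptor Cd163 by 0.59 (0.12 after quantile normalization), and neither was called. The endotoxin co-receptor Cd14 read 6.95, 7.52 and 7.91 in the tumours and 7.01 to 8.44 in the cultures, so it overlapped.

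**Figure D2:**
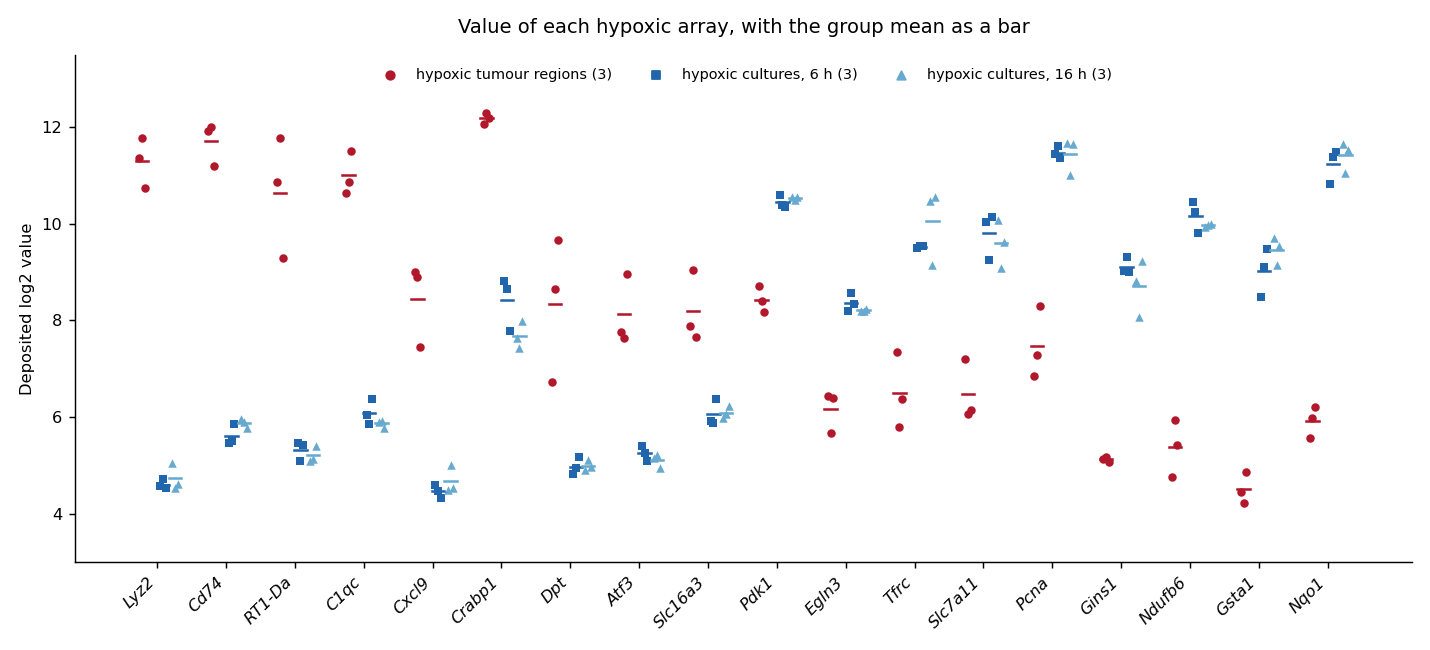
Deposited log2 values of 18 genes on each hypoxic array: tumour regions (circles), cultures at 6 h (squares) and cultures at 16 h (triangles), 3 of each, with the group mean as a bar. For all 18 genes the 3 tumour circles lie entirely above or entirely below the 6 culture points.

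Of 12 complement genes, 4 were called higher (C1qa, C1qb, C1qc and C3) and 1 lower (Cd55), with a median of 0.99 (0.82 after quantile normalization). Over all genes, 2.93% were called higher and 12.9% lower, so 1 lower call of 12 lies near the general share. C3, the central protein of the cascade, read 7.41, 7.45 and 6.80 against 5.04 to 5.37, which is 1.98 ± 0.15 log2 units. Cd55, which protects a cell from its own complement, went the other way with 6.78, 6.15 and 6.71 against 8.54 to 9.04 (-2.18 ± 0.16). The 3 C1q chains also belong to the macrophage list.

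Among 17 markers of T and NK cells, 4 were called higher (Cd4, Cd3e, Zap70 and Gzmb) and 0 lower, beside 2.93% and 12.9% of all genes. When tumour 2 was left out, 2 remained. The median of the 17 was 1.06 as deposited and 0.62 after quantile normalization. Cd3e, a chain of the T cell receptor complex, read 6.41, 6.86 and 6.49 against 4.97 to 5.19 in the cultures. Cd4, which rat macrophages carry beside helper T cells, differed by 1.63 ± 0.14, and Gzmb, a protease of killer cells, by 1.31 ± 0.23. The mean over the list was 6.16 to 6.36 in the tumours and 5.19 to 5.37 in the cultures.

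Of all genes, 2.93% were called higher and 12.9% lower. The interferon response had 4 of 24 genes called higher (Gbp2, Gbp5, Cxcl9 and Bst2) and 0 lower, with medians of 0.92 and 0.73. Without tumour 1 the count was 6 higher and 1 lower, and without tumour 3 it was 7 higher. Cxcl9, a chemokine induced by interferon gamma that draws T cells, read 9.01, 8.89 and 7.46 in the tumours against 4.34 to 5.01, a difference of 3.88 ± 0.31 (limma adjusted p = 1.06e-05). Tumour 3 was lowest and the groups were apart. The GTPase Gbp5 read 6.19, 6.98 and 7.48 against 4.48 to 4.95. Bst2, a membrane tether that holds back viruses, read 9.86, 9.61 and 9.57 against 7.73 to 8.94, and was 0.97 above the 6 h and 1.84 above the 16 h cultures. Mx1, an antiviral GTPase, differed by 1.20 as deposited and 0.75 after quantile normalization, and was not called.

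Many interferon genes carry the interferon-stimulated response element. Its core was searched as TTTCNNTTTC, N being any base, on both strands, and overlapping matches were counted. It was present in 12 of the 19 measured list members with a promoter in the RefSeq table and in 3.92% of all promoters. Shown are 80 bases around it for the 3 called genes that have it, with the match in capitals: Gbp2 at chr2:234005647-234005726 (plus strand, 31 bases before the start), Gbp5 at chr2:233910919-233910998 (plus, 56 before) and Bst2 at chr16:18255043-18255122 (minus, GRCr8), where 2 overlapping matches lie on the opposite strand.
Gbp2: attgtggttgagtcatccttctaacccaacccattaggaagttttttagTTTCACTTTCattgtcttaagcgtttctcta
Gbp5: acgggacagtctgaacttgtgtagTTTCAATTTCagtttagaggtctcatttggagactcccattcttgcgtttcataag
Bst2: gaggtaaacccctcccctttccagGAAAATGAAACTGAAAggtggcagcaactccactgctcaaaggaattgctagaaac

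In MHC class I and antigen processing, 3 of 12 genes were called higher (the peptide transporters Tap1 and Tap2, at 1.59 and 1.19, and RT1-S3 at 1.28) and 1 lower. The lower gene was Erap1, which trims peptides for class I (-1.70 ± 0.24), and it was not called when tumour 3 was left out. Of 26 cytokines, chemokines and NF-kB targets, 6 were called higher (Tnf, Cxcl16, Icam1, Ptgs2, Nos2 and Il1rn) and 1 lower (Csf1), with medians of 0.47 and 0.28. Without tumour 1 or without tumour 2, 4 were called higher. Over all genes, 2.93% were called higher and 12.9% lower, so the single lower call in each list does not exceed the general share. Cxcl16, a chemokine for T cells, read 9.45, 9.39 and 8.72 against 6.17 to 7.10. Csf1, the growth factor of macrophages, read 6.50, 6.83 and 6.29 against 8.61 to 9.71 in the cultures, a difference of -2.65 ± 0.24 (limma adjusted p = 2.43e-05). Outside the lists, the B cell chemokine Cxcl13 differed by 4.03 ± 0.29 and the lipid carrier Apoe by 3.44 ± 0.15.

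Against 2.93% of all genes called higher, a share that leaves few calls for short lists, none of the listed markers was called for B and plasma cells (6 measured), neutrophils (15), mast cells (10), endothelium (11), pericytes and smooth muscle (13), skeletal muscle (11) or adipocytes (12), where leaving out a single array gave at most 2 calls. Their deposited medians lay between 0.58 and 0.82 and those after quantile normalization between 0.17 and 0.41, against 0.32 and 0.10 over all genes. All tumour arrays lay above all cultures in both scalings for 3, 5, 3, 7, 6, 5 and 4 markers, in the order of these lists. The share over all genes was 21%. Of 12 fibroblast markers, Dpt and Fbln1 were called higher and Ogn lower, and without tumour 2 only 1 was higher. Dpt, a matrix protein of connective tissue, read 6.74, 8.65 and 9.67 in the tumours and 4.82 to 5.17 in the cultures (3.37 ± 0.49). The tumours were spread widely, and all were above the cultures. Ogn, a small proteoglycan, was lower at 5.61, 6.91 and 6.27 against 8.62 to 9.67 (-2.94 ± 0.26). Red blood cells had Hbb (1.36) and Hbb-b1 (1.49) higher and the globin chaperone Ahsp lower (-1.07). Only 1 stayed higher without tumour 2, none stayed lower without culture 13, and the globin copies share sequence.

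Crabp1, a carrier of retinoic acid in the cytoplasm, read 12.07, 12.29 and 12.19 in the tumours and 7.43 to 8.81 in the cultures with a median of 7.89. The 3 tumours were tight and high, and the difference was 4.13 ± 0.22 (17.6-fold). Among 16 glial and neural stem cell genes, Sox2 (1.24 ± 0.18) and Nes (1.20 ± 0.17), markers of neural stem cells, were called higher, and 1 of them without tumour 2. The glial filament Gfap read 5.50, 5.27 and 5.66 against 4.87 to 5.19, a difference of 0.41 that was -0.06 after quantile normalization. Vim, the filament of mesenchymal cells, read 12.35, 12.38 and 12.24 against 11.96 to 12.36 and overlapped. Of 12 collagens, Col3a1 (1.21) and Col27a1 (1.00) were called higher, and 1 of them when any tumour or culture 13, 28 or 29 was left out. Mgp (1.51), Eln (1.19) and Tgfbi (1.20) were called among 15 other matrix genes, whose median of 0.24 became -0.12 after median centring. In the plasminogen system and matrix proteases (22 genes, median 0.30, or -0.06 after centring), the activators Plat (1.84 ± 0.20) and Plau (1.50 ± 0.16) were called higher. The collagenase Mmp13 (-3.22 ± 0.31) and the lysosomal protease Ctsl (-2.05 ± 0.15) were called lower. Over all genes, 2.93% were called higher and 12.9% lower.

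**Figure D3:**
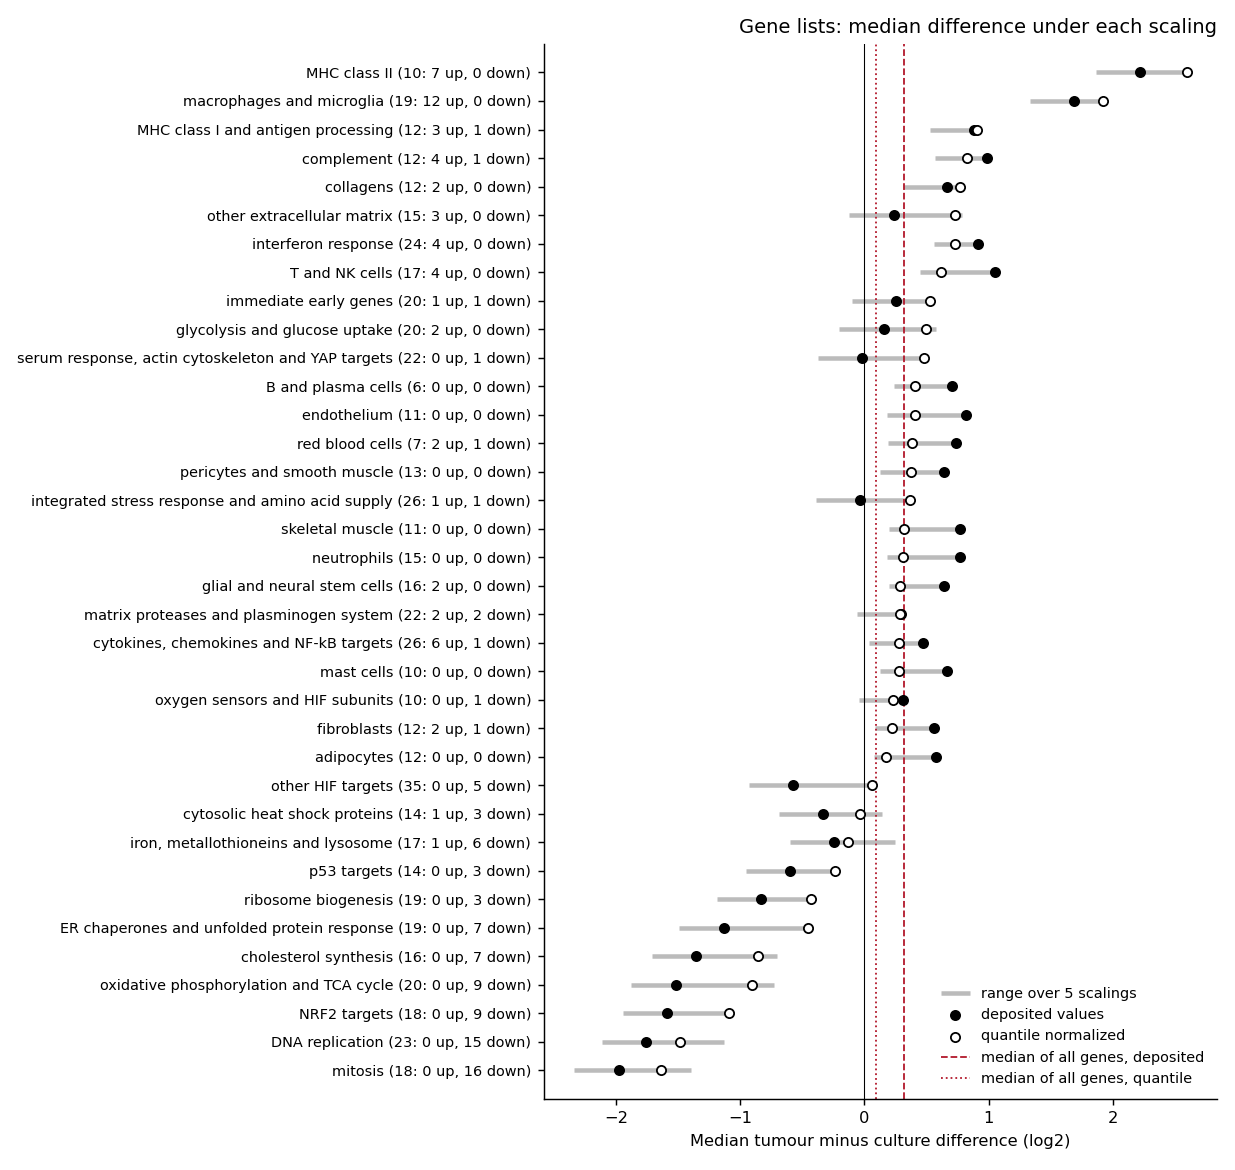
Median difference between hypoxic tumour regions and hypoxic cultures (log2) of 36 gene lists, with the number measured and the number called higher and lower in brackets. Filled dots are deposited values, open dots quantile normalized values and grey bars the range over 5 scalings, and the red lines mark the medians of all genes (0.32 and 0.10). MHC class II is the highest list and mitosis the lowest under both.

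Atf3, a transcription factor of the stress response, separated hypoxic tissue from hypoxic cultures on every array. It read 7.77, 7.65 and 8.96 in the tumours and 4.95 to 5.39 in the cultures with a median of 5.19, so the 3 tumours were high and all 6 cultures low at both times. The difference was 2.95 ± 0.26 (limma adjusted p = 1.85e-05), 3.19 after quantile normalization, 2.88 against 6 h and 3.01 against 16 h. It was the only one called higher of 26 genes of the integrated stress response and amino acid supply. Slc7a11, the cystine importer, was called lower at 7.20, 6.06 and 6.15 against 9.10 to 10.14 (-3.24 ± 0.32). Ddit3, a factor of the same pathway, read 10.95, 10.37 and 11.13 against 10.95 to 12.17 and overlapped. The median of the 26 genes was -0.03 as deposited and 0.37 after quantile normalization. The counts became 2 higher and 2 lower without tumour 1 or culture 22, and 1 higher and 2 lower without tumour 2, culture 6 or culture 13. Beside 2.93% of all genes called higher and 12.9% lower, Junb was called higher (1.09 ± 0.15) and Ier3 lower (-2.03 ± 0.21) among 20 immediate early genes. Their median of 0.25 was -0.10 after centring, 0 genes were higher and 2 lower without tumour 3, and 2 were higher without tumour 2.

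Stress genes of other pathways were called in both directions, beside 2.93% higher and 12.9% lower over all genes. Of 19 chaperones and folding enzymes of the endoplasmic reticulum, 7 were called lower (Dnajb9, Dnajc3, Pdia4, Creld2, Hspa5, Hyou1 and Sdf2l1) and 0 higher, with medians of -1.13 and -0.46. Without tumour 3, 5 were called lower. Hspa5, the main chaperone of that compartment, read 10.22, 10.45 and 9.66 against 11.54 to 12.30. In the cytosol, Hspb1, a small heat shock protein, was called higher at 11.11, 10.85 and 10.17 against 8.09 to 9.84 (1.98 ± 0.37), while Hspa4l (-2.62), Hspd1 (-2.00), a mitochondrial chaperonin kept in that list, and Hspb8 (-1.93) were lower. The median of the 14 heat shock genes was -0.33 as deposited and 0.14 after cyclic loess. Of 14 p53 targets, Ccng1, Gadd45a and Plk2 were called lower (-2.60, -1.75 and -1.56) and 0 higher. Of 22 genes of the serum response, actin cytoskeleton and YAP, Ajuba alone was called (-1.04), not so without culture 13 or 29, and the median was -0.02 as deposited and 0.48 after quantile normalization.

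Textbook hypoxia genes are given beside the shares called over all genes, 2.93% higher and 12.9% lower. As a check of the labels, Vegfa, Slc2a1, Car9 and Bnip3 read higher in the hypoxic than in the normoxic area of all 3 tumours. Of 20 genes of glycolysis and glucose uptake, 2 were called higher in the tumour (Slc16a3 and Pfkfb3) and 0 lower, although 1 was lower without tumour 1. Their median was 0.16 as deposited, 0.50 after quantile normalization and -0.20 after centring. Of 35 other HIF targets, 0 were called higher and 5 lower (Egln3, Ankrd37, Loxl2, Pdk1 and Tfrc). Their median was -0.57 as deposited and 0.06 after quantile normalization. It was -0.44 against the 6 h cultures and -0.71 against the 16 h cultures.

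Slc16a3, which exports the lactate made by glycolysis, read 7.89, 9.04 and 7.66 in the tumours and 5.87 to 6.38 in the cultures. Tumour 2 was highest and no culture reached the tumours, with a difference of 2.12 ± 0.27 (limma adjusted p = 0.000148). Pfkfb3, whose product drives the key step of glycolysis, read 7.67, 8.17 and 8.32 against 6.32 to 6.90 (1.55 ± 0.16). Slc2a1, the glucose carrier, spanned 11.78, 10.87 and 9.23 in the tumours and 10.01 to 10.89 in the cultures. Tumour 1 lay above and tumour 3 below all cultures, and the difference of 0.15 (limma adjusted p = 0.775) was -0.21 after centring. Ldha, which makes lactate, read 13.07, 13.15 and 12.21 against 12.57 to 12.89 and Hk2, which traps glucose in the cell, 9.91, 9.30 and 8.18 against 8.65 to 8.91, both with overlap. The probe sets of Ldha disagree. A second, dimmer one differed by -1.63 as deposited and -1.19 after quantile normalization, past the 2-fold rule, and was not counted. The letters ACGTG, the core of the hypoxia response element, occurred on either strand in 11 of the 18 listed glycolysis genes with a promoter in the RefSeq table and in 19.3% of all promoters. Of these 11 genes only 1, Pfkfb3, was called higher, and the promoter of Slc16a3 had no match.

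Vegfa, the vessel growth factor, read 9.31, 9.50 and 9.46 in the tumours and 8.31 to 9.52 in the cultures, a difference of 0.77 that became 1.53 after quantile normalization. One culture was as high as the tumours. Car9, which acidifies the surroundings of hypoxic cells, read 9.85 in tumour 1 and 9.24 in tumour 3, with tumour 2 higher still, against 9.19 to 9.85 in the cultures. It differed by 0.11 as deposited, 0.91 after quantile normalization and -0.25 after centring. Bnip3, a mitophagy receptor, read 10.13, 10.17 and 10.45 against 10.71 to 11.06, which is -0.61 as deposited and 0.12 after quantile normalization. For Car9 and Bnip3 the sign of the difference thus follows the scaling. The oxygen-regulated subunits themselves went opposite ways as deposited: Hif1a differed by -1.42 and Epas1 by 0.80, and by -0.70 and 0.36 after quantile normalization, neither passing the 2-fold rule.

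The 5 lower HIF targets were low on every tumour array. Egln3, a prolyl hydroxylase that is itself raised by HIF, read 6.43, 5.66 and 6.40 against 8.19 to 8.57 (-2.13 ± 0.18, limma adjusted p = 1.28e-05). By the probe sets used, it was the only called member of the 10 oxygen sensors and HIF subunits, whose median of 0.31 was -0.04 after centring. The probe sets of Egln1, another prolyl hydroxylase, disagree. The one used differed by 0.35 (0.97 after quantile normalization). A dimmer one differed by -1.57 (-1.59), past the 2-fold rule, and was not counted. Pdk1, which holds pyruvate back from the mitochondria, read 8.72, 8.40 and 8.17 against 10.34 to 10.59 (-2.06 ± 0.13). Ankrd37 read 7.84, 7.11 and 7.92 against 9.68 to 10.97, and was 2.15 below the 6 h and 2.79 below the 16 h cultures. Tfrc, the receptor that brings in iron, read 7.35, 5.80 and 6.38 against 9.14 to 10.56, the largest difference of the list at -3.28 ± 0.37. Loxl2, a collagen crosslinking enzyme, differed by -1.75 ± 0.13.

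**Figure D4:**
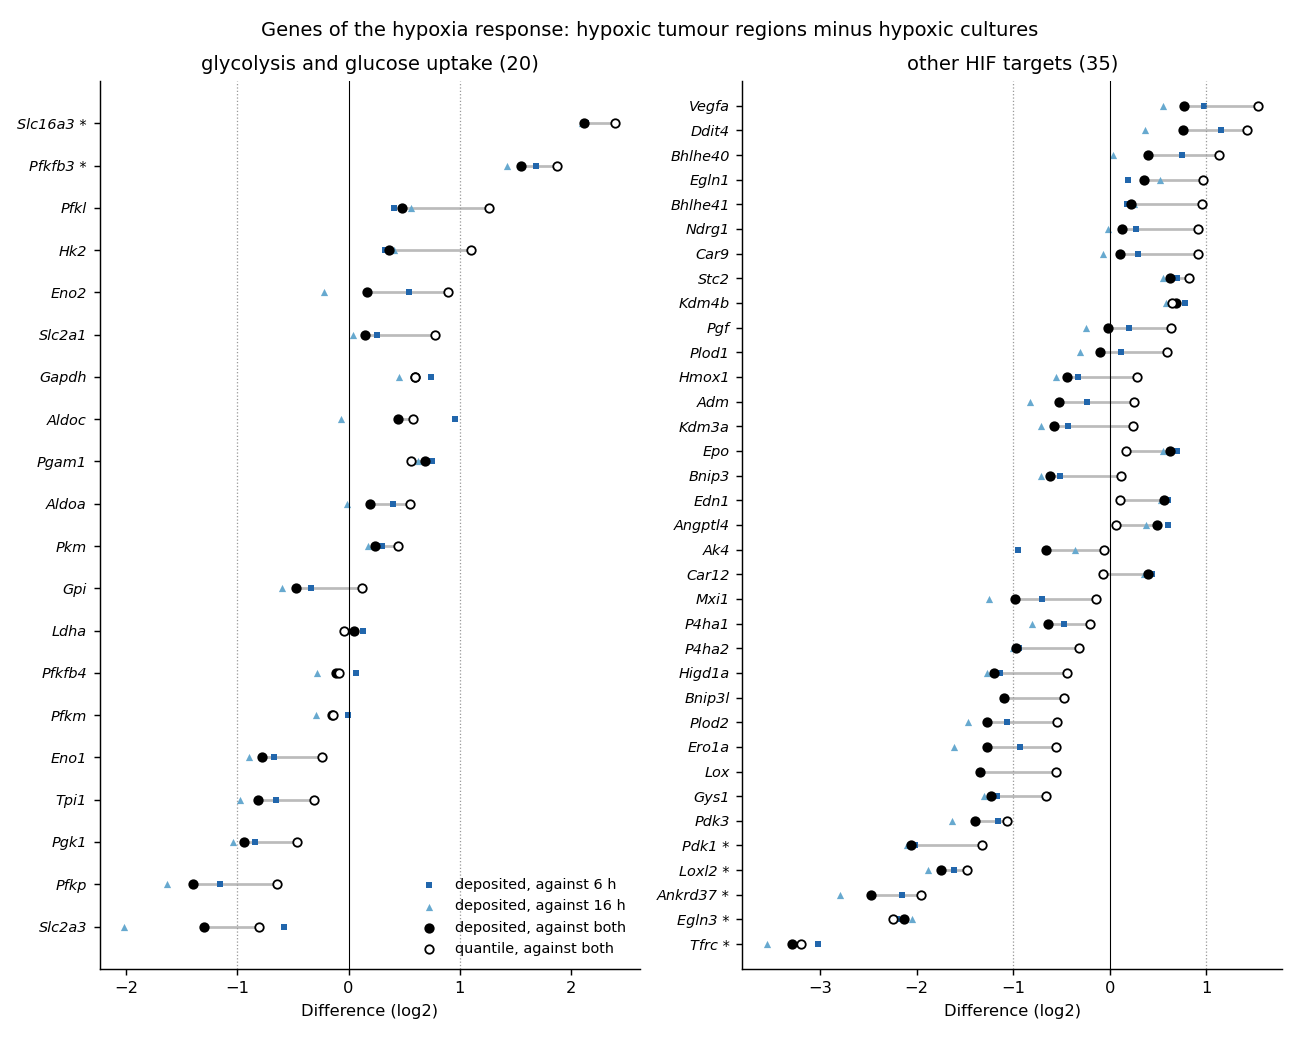
Difference between hypoxic tumour regions and hypoxic cultures (log2) for 20 genes of glycolysis and glucose uptake and 35 other HIF targets: deposited values (filled dots), quantile normalized values (open dots), and deposited values against the 6 h cultures (squares) and the 16 h cultures (triangles) alone. Stars mark called genes: Slc16a3 and Pfkfb3 to the right, and Egln3, Ankrd37, Loxl2, Pdk1 and Tfrc to the left.

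Genes of cell division were the lowest group. Of 18 mitosis genes, 16 were called lower and 0 higher, with medians of -1.98 as deposited and -1.63 after quantile normalization. Their mean level was 7.23 to 7.36 in the tumours and 9.12 to 9.77 in the cultures. The lowest were the spindle checkpoint kinases Ttk (-3.65) and Bub1 (-3.45), the spindle motor Kif11 (-3.07) and cyclin Ccnb1 (-2.72). Of 23 DNA replication genes, 15 were called lower and 0 higher, with medians of -1.76 and -1.48. Pcna, the clamp that holds the polymerase on DNA, read 6.85, 7.29 and 8.29 against 11.01 to 11.67 (-3.98 ± 0.28, limma adjusted p = 5.87e-06). Gins1, a part of the replicative helicase, read 5.13, 5.17 and 5.08 against 8.08 to 9.31. All 3 tumours were low and nearly equal, and the difference was -3.78 ± 0.21. The helicase subunits did not move as one: Mcm6 (-2.18) and Mcm7 (-1.72) were called, whereas Mcm2 differed by -0.06 and overlapped. Of 19 ribosome biogenesis genes, 3 were called lower (Wdr75, Gnl3 and Heatr1), near the 12.9% of all genes called lower. The medians of the 19 were -0.83 and -0.43, and a second probe set of Gnl3 differed by only 0.06.

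Targets of NRF2, the factor that raises antioxidant and detoxifying enzymes, held some of the lowest genes of all. Of 18 measured, 9 were called lower (Nqo1, Gsta1, Slc7a11, Gstp1, Me1, Gstm1, Prdx1, Taldo1 and Gsr) and 0 higher, with medians of -1.59 and -1.09. The shares over all genes were 12.9% lower and 2.93% higher. Nqo1, a quinone reductase, read 5.56, 5.97 and 6.21 in the tumours and 10.83 to 11.66 in the cultures with a median of 11.43. It was the lowest of the 14324 genes at -5.41 ± 0.21 (limma adjusted p = 3.51e-07). The glutathione transferase Gsta1 read 4.45, 4.21 and 4.87 against 8.48 to 9.71 (-4.73 ± 0.23). Hmox1, which breaks down heme and is also a HIF target, read 10.81, 10.05 and 9.58 against 10.32 to 11.06 and overlapped. Of 17 genes of iron, metallothioneins and lysosome, 6 were called lower (Tfrc, Ireb2, Mt2A, Lamp2, Lipa and Npc1) and Mt3 higher (1.11), though not without tumour 2 or tumour 3. The median of that list was -0.24 as deposited and 0.25 after cyclic loess.

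Cholesterol synthesis had 7 of 16 genes called lower (Idi1, Sqle, Nsdhl, Ebp, Msmo1, Cyp51 and Fdft1) and 0 higher, with medians of -1.35 and -0.85. Without tumour 3, 5 were called lower. The shares over all genes were 12.9% lower and 2.93% higher. Idi1, an isomerase early in the pathway, read 5.20, 6.12 and 6.35 against 8.78 to 9.52 (-3.30 ± 0.24). Srebf2, the factor that drives the pathway, differed by 0.34. Several of its enzymes consume oxygen, among them Sqle, Msmo1 and Cyp51. Among 20 mitochondrial genes (oxidative phosphorylation and TCA cycle), 9 were called lower and 0 higher, with medians of -1.52 and -0.90. Those called were Ndufa9 (-3.39), Ndufs1 (-2.73), Uqcrc2 (-2.27), Cox5b (-2.12), Sdhb (-2.01), Sdha (-1.85), Idh3a (-1.69), Ogdh (-1.56) and Cox6c (-1.41).

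The 12 largest decreases by the naming rule were Nqo1, Rpa3, Lsm8, Gsta1, Il1rl1, Mrps18c, Atp5mg, Ndufb6, C1galt1c1, Cops9, Nuf2 and Mrps14, from -5.41 to -4.38. Several code for subunits of large assemblies. Rpa3, the smallest subunit of the protein that coats single-stranded DNA, read 5.94, 4.11 and 4.34 against 9.34 to 10.51 (-5.36 ± 0.38, and -5.16 by its second probe set). Cops9, of the COP9 signalosome, read 6.07, 5.95 and 5.98 against 10.22 to 10.76. Atp5mg, of the mitochondrial ATP synthase, read 5.90, 6.63 and 6.07 against 10.77 to 11.05. Ndufb6, of respiratory complex I, read 4.76, 5.94 and 5.43 against 9.81 to 10.46. Il1rl1, the receptor of interleukin 33, was lower by a similar amount (-4.73 ± 0.29).

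The same comparison was made between the normoxic tumour areas and the normoxic cultures. There 375 genes (2.62%) were called higher and 1480 (10.3%) lower in the tumour. Normoxic tumour 3 was unlike the others, with an array SD of 1.92 against 1.79 in normoxic tumours 1 and 2. By adjusted p alone, 17561 probe sets were called, and 19304 when normoxic tumour 3 was left out. The number was 14740 without normoxic tumour 1 and 14707 without normoxic tumour 2. How far the normoxic list counts below depend on tumour 3 was not tested. The 200 genes higher in both comparisons are 47.7% of the hypoxic and 53.3% of the normoxic list, and the 1211 lower in both are 65.7% and 81.8%. MHC class II had 10 of 10 called higher in normoxia and macrophages 14 of 19, against 7 and 12 in hypoxia. T and NK cells had 12 of 17 and the interferon response 13 of 24, against 4 in each. Mitosis had 8 of 18 called lower in normoxia against 16, and DNA replication 9 of 23 against 15, while NRF2 targets had 11 of 18 against 9. These are counts past a threshold, and a difference between them was tested only gene by gene. By that test 0 genes were called of MHC class II, T and NK cells or NRF2 targets. It called 1 gene each of the macrophage, interferon response and mitosis lists and 2 of DNA replication, all with a lower difference in hypoxia.

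That test asked whether the tumour to culture difference itself differed between hypoxia and normoxia, with limma over all 18 arrays and the 9 tumours and culture numbers as blocks. It called 32 genes (0.223%) whose difference was higher in hypoxia and 180 (1.26%) whose difference was lower. The number of probe sets called, 319 (1.17%), ranged from 44 to 1365 when the normoxic and hypoxic arrays of 1 tumour or culture number were left out, so it is not a stable count. It was 58 without culture 22, 177 without culture 28, 62 without culture 29, 117 without culture 6, 44 without culture 13 and 123 without culture 26. It was 772 without tumour 1, 1365 without tumour 2 and 649 without tumour 3. Of the 32 genes, 11 were among those called higher in hypoxic tissue, and of the 180, 104 were among those called lower.

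Atf3 was among the genes whose difference was higher in hypoxia. The normoxic tumour areas read 5.65, 5.55 and 5.96 and the hypoxic areas of the same tumours 7.77, 7.65 and 8.96, while the cultures averaged 5.39 in normoxia and read 4.95 to 5.39 at 0.2% oxygen. The difference of differences was 2.61 (limma adjusted p = 0.00161), and it passed the threshold in 17 of 17 alternative settings. Plau, the urokinase, went from 7.79, 6.75 and 7.29 to 8.23, 8.39 and 8.50 in the tumours, while the cultures averaged 7.55 in normoxia and read 6.33 to 7.29 in hypoxia (a difference of differences of 1.77, past the threshold in 17 of 17 settings). For Slc16a3 it was 1.24 and for Pfkfb3 1.03, past the threshold in 13 and 14 of 17. Neither gene passed with weights per sample type or without the blocks.

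In the other direction, Ly6c, a surface protein of monocytes with near-identical copies, read 6.70, 6.89 and 7.61 in the normoxic and 4.07, 4.25 and 4.11 in the hypoxic areas, with cultures at 3.23 to 3.64 in hypoxia. It was thus far above the cultures in normoxic tissue and just above them in hypoxic tissue (a difference of differences of -2.80, past the threshold in 16 of 16 settings). By the same measure Sqle (-1.71), Nsdhl (-1.79), both enzymes of cholesterol synthesis, and the mitochondrial carrier Slc25a40 (-2.41) passed in 17 of 17. Sqle read 9.26, 9.70 and 9.54 in normoxic and 7.45, 8.16 and 8.47 in hypoxic tissue, against 10.62 to 10.92 in the hypoxic cultures. Pcna (-1.64) read 8.77, 8.68 and 10.21 in the normoxic areas. It passed in 15 of 17 settings, but not with weights per sample type or without the blocks. For Sqle and Pcna the normoxic tumour areas also lay below the cultures, and the hypoxic areas lay lower still.

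**Figure D5:**
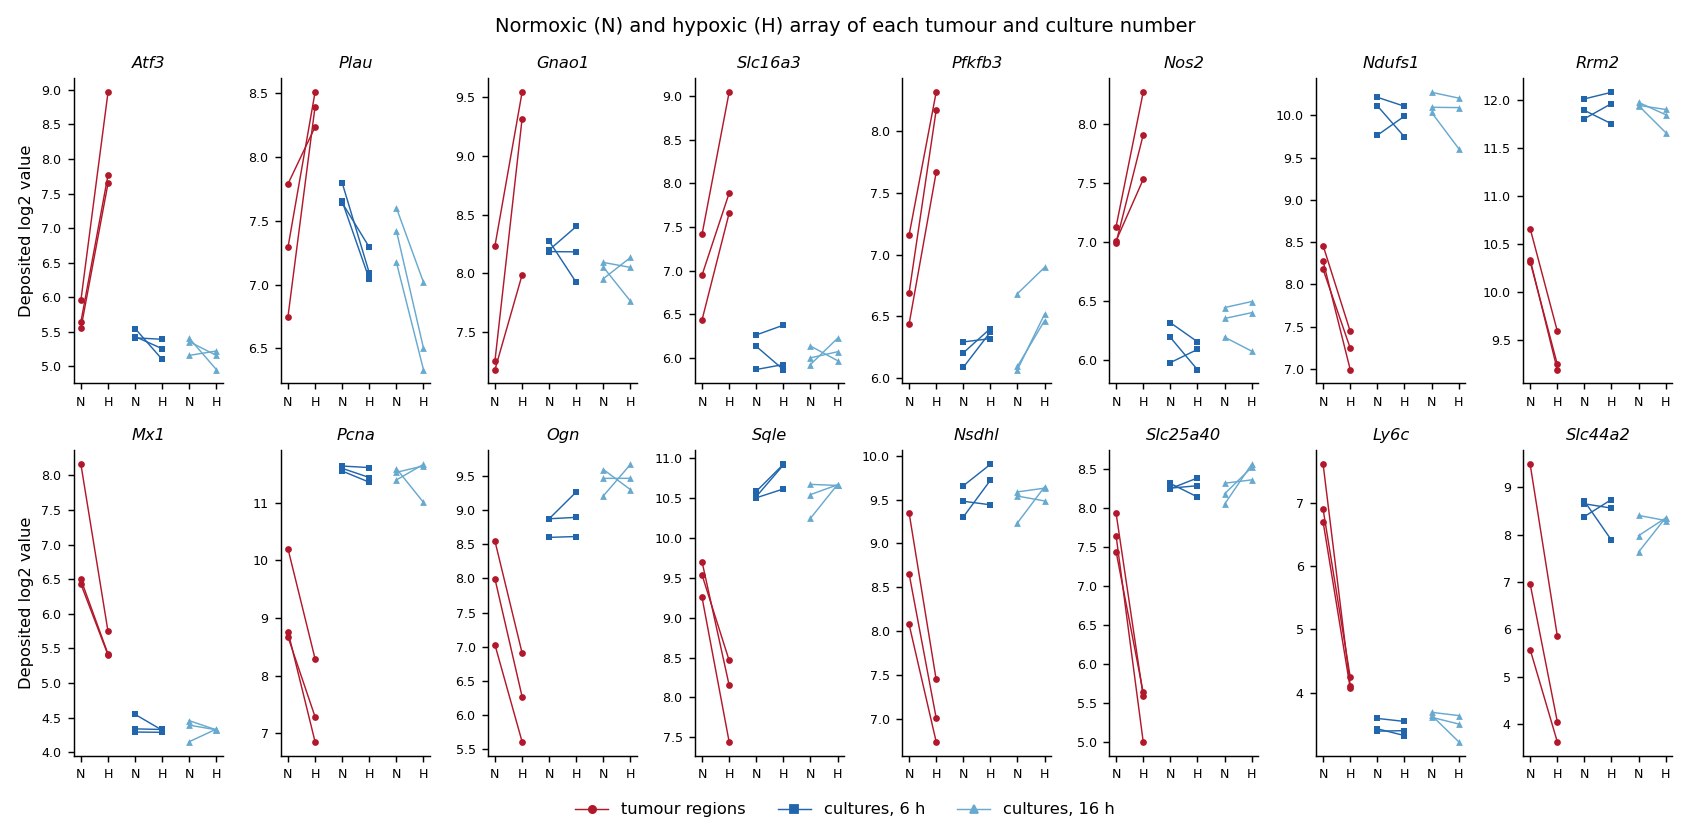
Deposited log2 values of 16 genes in the normoxic (N) and hypoxic (H) array of each tumour (circles), 6 h culture number (squares) and 16 h culture number (triangles), joined by lines. The tumour lines climb in the first 6 genes and drop in the other 10, while the culture lines stay nearly level for most genes, with Plau going down in the cultures.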

How the data were processed

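Captured areas and cultures gave total RNA that, per the labels, was amplified for Rat Gene 1.0 ST arrays. The authors deposited log2 probe set values from 2.16 to 13.8. The submitters' processing notes name RMA and Partek 6.5b, and whether the 18 arrays were normalized as one set is not given by the sources used here. The platform's annotation gave 1 symbol to 15097 of 27363 probe sets, several to 323 and none to 11943. A gene with more than 1 probe set (499 genes) was represented by its brightest on average, which left 14324 genes.

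The 9 hypoxic arrays were compared with limma 3.58.1 in R 4.3.3, by its two-sided test, and p-values were adjusted by Benjamini-Hochberg over the 27363 probe sets. Separate contrasts in the 3 hypoxic groups gave the 6 h and 16 h values, and the normoxic comparison was made likewise. Cyclic loess, median centring, centring with SD scaling, array weights, a replicate block and each array left out (each pair of arrays in the oxygen contrast) were tried as alternatives. The oxygen contrast used all 18 arrays with 9 blocks. As a check of the pairing, deviations of the normoxic and hypoxic array with the same number correlated at 0.128, 0.0357 and 0.273 for tumours 1, 2 and 3, which the labels pair. For the cultures they correlated at 0.125, 0.193 and 0.192 (6 h) and 0.130, 0.188 and 0.307 (16 h). Culture numbers were taken as pairs, although the labels do not give their meaning. Values for arrays with unlike numbers are not given here, so these correlations cannot show that the cultures were paired. The scripts were tested on simulated data.

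Members and gene lists were chosen with earlier results of these data known. The naming rule took the 12 largest differences per direction that were past the threshold and without overlap in both scalings, the 3 smallest p-values of each list, the 3 largest per direction of the oxygen contrast, and Atf3, Lyz2, Vegfa, Slc2a1, Car9, Bnip3, Hif1a and Epas1. Other list members named in the text were picked after their values were seen, mostly because they passed the 2-fold rule. Promoter sequences are RefSeq's, of GRCr8.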

Additional observations from a re-analysis of the deposited data

Results flagged for a closer look

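In 16 genes the tumour to culture difference itself differed between hypoxia and normoxia by the limma interaction test over 18 arrays with 9 blocks (adjusted p below 0.05), among the genes named by the rule. The values that follow are the hypoxic difference minus the normoxic difference in log2 units. It was positive for Atf3 (2.61), Plau (1.77), Gnao1 (1.44), Slc16a3 (1.24), Pfkfb3 (1.03) and Nos2 (0.92). It was negative for Ndufs1 (-0.95), Rrm2 (-1.03), Mx1 (-1.46), Pcna (-1.64), Ogn (-1.69), Sqle (-1.71), Nsdhl (-1.79), Slc25a40 (-2.41), Ly6c (-2.80) and Slc44a2 (-2.89).

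Gnao1, a G protein subunit of neural cells, read 8.23, 7.25 and 7.18 in the normoxic and 9.54, 9.32 and 7.98 in the hypoxic areas, and passed in 8 of 17 alternative settings. Nos2, the inducible nitric oxide synthase, and Ndufs1, of respiratory complex I, passed in 9 of 17 each. Rrm2, a subunit of ribonucleotide reductase, passed in 15 of 17, but not with weights per sample type or without culture 13. Ogn passed in 16, but not without the blocks. Mx1 read 6.43, 6.50 and 8.16 in the normoxic and 5.40, 5.42 and 5.74 in the hypoxic areas, and passed in 5 of 16. Slc44a2, a choline carrier, passed in 16 of 17, but not without the blocks. Its probe sets disagree: the one used differed by -3.84 between hypoxic tumour and culture and the other by 0.24 (limma adjusted p = 0.319). Atf3, Plau, Sqle, Nsdhl and Slc25a40 passed in 17 of 17 and Ly6c in 16 of 16. All 16 genes kept the direction of this difference in every setting that could be run for them. They were selected by this same contrast on the same arrays, so kept direction was hardly a test.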

How the results depend on the processing

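The number of arrays limits the precision. Against 20244 probe sets in the comparison of hypoxic tumour and hypoxic culture, quantile normalization gave 12545, cyclic loess 10638, a minimum difference of 1 log2 unit 5420, and quantile normalization with weights per sample type 9655. Against the 6 h cultures (19117) the same settings gave 10956, 9528, 5963 and 9426. Against the 16 h cultures (18472) they gave 10841, 8783, 5122 and 9015, and in the normoxic comparison (17561) 10395, 10081, 4222 and 7801. Leaving out 1 array gave 18953 to 19781, 15883 to 18882, 15443 to 18279 and 14707 to 19304 in that order, and dropping the dimmest 25% of probe sets 15664, 14929, 14601 and 14625. The 2-fold rule, with 2262 genes, called 2143 to 2435 when 1 array was left out and 1864 with cyclic loess in place of quantile normalization. The oxygen contrast (319) gave 638 after quantile normalization, 514 after median and SD scaling, 46 with weights per sample type, 237 without the block and 44 to 1365 with both arrays of 1 tumour or culture number left out. A random replicate block over 18 arrays (consensus correlation 0.0896) gave 20791 calls. In the deposited values, all 2262 genes called by the 2-fold rule stayed at least 2-fold apart and past the threshold with this block. The quantile normalized values were not refitted with the block, and genes that would gain a call were not counted. The differences between hypoxic tumour and culture that changed sign were Cma1 (-0.14) and Ly6c (-0.10) after median and SD scaling, Slc2a1 (-0.21) and Car9 (-0.25) after median centring, Slc2a1 without tumour 1 and Car9 without tumour 2 (with 1 array left out, -0.43 to 0.85 and -0.045 to 0.34), and Bnip3 after quantile normalization with or without weights (0.12) and after cyclic loess (0.19). In these the cause was not tested. Of the other values of single genes, 2410 kept direction and side of the threshold, 41 lost the call and 5 gained it. Of the list medians under alternatives, 503 moved by less than the spread over the tumours and 181 by more. The larger moves came mostly with the scaling. Of 36 lists, 32 moved by more after quantile normalization, 31 after cyclic loess, 35 after median centring and 22 after median and SD scaling. Weights per sample type, all 18 arrays and the replicate block moved 0 lists, but these settings leave the group means as they are.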

Other observations

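Gene families were also picked by symbol after their values were seen, and some of their members are in the lists above. As deposited and after quantile normalization, the median of each family was lower in hypoxic tumour regions than in hypoxic cultures. None of the family members was called higher. Of 39 proteasome subunits 24 were called lower, with a median difference of -1.94 as deposited and -1.61 after quantile normalization, and Psmd14, which removes ubiquitin at the proteasome lid, was lowest at -4.12. Of 67 mitochondrial ribosomal proteins 33 were lower (medians -1.55 and -1.06), with Mrps18c lowest at -4.72. Of 37 subunits and assembly factors of complex I 21 were lower (-1.84 and -1.15). Among 12 centromere proteins 8 were lower (-2.11 and -1.82), with Cenpk at -4.29. The mediator complex, which links transcription factors to RNA polymerase, had 11 of 23 lower (-1.03 and -1.02), with Med21 at -3.45, and RNA polymerase subunits had 11 of 27 (-1.22 and -0.78), with Polr2b at -3.22.

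The cytosolic chaperonin, which folds new proteins, had 3 of 8 members lower (-1.42 and -0.80) and the translation initiation factors 8 of 43 (-0.89 and -0.39). Cytosolic ribosomal proteins had 7 of 64 lower, against 12.9% of all genes, and their median of -0.53 became 0.29 after cyclic loess. Within the proteasome, 2 subunits induced by interferon read otherwise than most: Psmb8 differed by 0.15 and Psmb9 by -0.20 between hypoxic tumour and culture, with overlapping arrays for both.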
